A study of Drosophila melanogaster with 12 samples.

Results

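The quantity described here is how much the response of the fly wing to the larva-to-prepupa transition depended on the ecdysone receptor EcR. For each gene the stage response is the log2 level at +6 h minus the log2 level at -6 h, in hours relative to puparium formation, and the difference examined is the stage response of EcR-RNAi wings minus that of wild-type wings. The comparison took genes whose normalized counts averaged 10 or more across the 8 RNA libraries, which left 7775 of the 15240 genes in the table. A negative difference means that a gene increased less, or decreased more, in EcR-RNAi wings than in wild type, and a positive one the opposite.

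Wings were dissected from female Drosophila melanogaster raised at 25 °C, from prepupae staged at the white prepupa and taken at +6 h, and from wandering third-instar larvae at -6 h. The 4 groups of 2 libraries each were EcR-RNAi at +6 h, EcR-RNAi at -6 h, wild type at +6 h and wild type at -6 h. The EcR-RNAi animals were yw/yw and carried Vg-GAL4, UAS-Flp and Tub>>CD2>>GAL4, together with UAS-GFP and the hairpin UAS-EcR-RNAi[104]. The wild-type animals were +/+ at every locus the labels list, so they carried neither yw nor any of the transgenes. In such a flip-out system Vg-GAL4 acts through a regulatory element of the wing gene vestigial, the Flp recombinase removes the CD2 cassette, and the tubulin promoter then drives GAL4 in those cells and their descendants, while other cells of the dissected wing keep EcR. The reads do not separate cells with the hairpin from cells without it, and the loss of EcR cannot be told apart from the strain background and the transgenes that go with it.

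Ecdysone is the steroid hormone that times moulting and metamorphosis in insects. EcR binds it as a heterodimer with Usp, and the pair can repress target genes without hormone and activate them with it. A hormone pulse at the end of larval life starts a cascade in which early genes for transcription factors are followed by later regulators and effector genes, and in the wing disc it accompanies eversion, a change of the cell cycle and the secretion of new extracellular matrix and cuticle.

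Recovered read totals lay between 6444939 in EcR-RNAi at +6 h (replicate 1) and 10016236 in wild type at -6 h (replicate 2). Replicates correlated across genes with r between 0.9815 and 0.991. By counts the replicates of EcR-RNAi at -6 h lay furthest apart, with a chi-square per degree of freedom of 30.4 against 6.56 to 17.4 in the other groups. By the median absolute log2 difference those of wild type at -6 h did, at 0.170 against 0.169 in EcR-RNAi at -6 h. On the component that held 67.4% of the variance the EcR-RNAi libraries had scores of -27.9 and -27.1 at the later stage and of 44.0 and 29.5 at the earlier one, between wild type at +6 h (-77.1 and -70.1) and at -6 h (63.6 and 65.1). All 12 wing epithelium markers had reads in each of the 8 libraries. Markers of gut and fat body were highest in the 2 EcR-RNAi libraries at -6 h, and their levels are given with the results they touch. The 3 genes just under the minimum mean were Ptp52F at 9.94, CG30414 at 9.95 and CG33189 at 9.96 normalized counts. The 3 just above it, mir-2a-1, CR41583 and snoRNA:Psi28S-1232, each averaged just over 10.

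The stage response of EcR-RNAi wings was mostly a smaller version of that in wild type. Across all 7775 genes the standard deviation of the stage response was 0.839 on the log2 scale in EcR-RNAi and 1.55 in wild type. The difference passed the limma test (Benjamini-Hochberg adjusted p under 0.05) for 2102 genes, or 27.0% of those tested. It was higher for 905 genes (11.6%) and lower for 1197 genes (15.4%), with a median of 0.00 over all tested genes. Differences of at least 3 on the log2 scale numbered 18 in the higher direction and 171 in the lower, and the smallest difference that passed was 0.415. Because whole wings were sequenced, fewer cells of a type and less RNA per cell cannot be told apart in these values. The share of calls in the higher direction was 43.1%, and it was 60.6% with upper-quartile scaling (1377 higher, 894 lower) and 54.2% with quantile scaling (1039 higher, 877 lower). Over all genes the median moved by 0.17 and 0.08 under these scalings.

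Sorted by the signs of both stage responses, 1046 of the called genes (49.8%) had positive responses that were smaller in EcR-RNAi, with medians of 0.52 in EcR-RNAi and 1.66 in wild type. Another 736 (35.0%) had negative responses that were smaller in EcR-RNAi, with medians of -0.29 in EcR-RNAi and -1.29 in wild type. The response was negative in EcR-RNAi and positive in wild type for 144 genes, and positive in EcR-RNAi and negative in wild type for 160. Larger responses in EcR-RNAi were uncommon, with 9 genes whose positive response and 7 genes whose negative response exceeded that of wild type. Among the 7 were the gut markers Jon65Aiv and yip7 and the hemocyte markers Hml and proPO-A1. Jon65Aiv, yip7 and proPO-A1 passed the minimum mean only through EcR-RNAi at -6 h, so the filter fixed their direction and nothing is read from their place in this pattern.

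**Figure D1:**
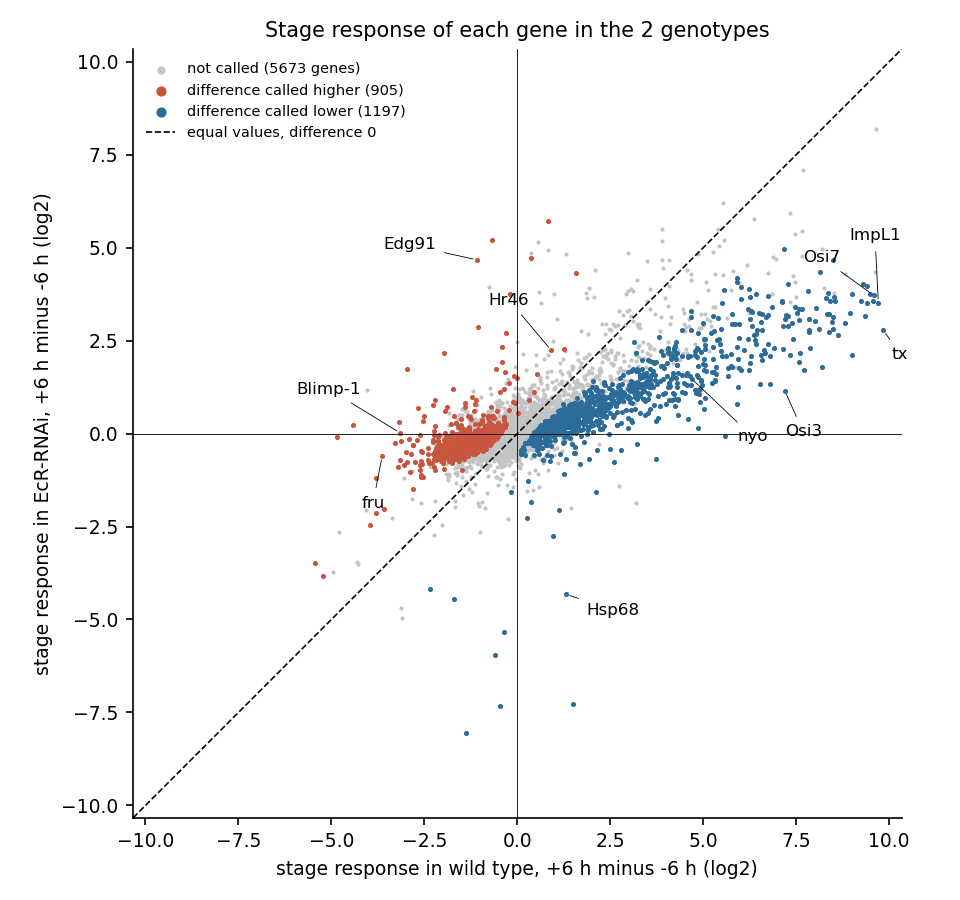
Stage response of each of the 7775 genes in EcR-RNAi (vertical axis) and in wild type (horizontal axis), both as +6 h minus -6 h on the log2 scale, with the 905 genes called higher in red and the 1197 called lower in blue. The cloud lies flatter than the dashed line of equal values, with tx at 2.79 in EcR-RNAi and 9.84 in wild type, and Blimp-1 at 0.01 in EcR-RNAi and -3.14 in wild type.

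The stage response on its own passed for 16.0% of genes in EcR-RNAi (12.1% higher, 3.88% lower) and for 55.7% in wild type (29.1% higher, 26.7% lower). The share of the wild-type response that was kept was measured on genes chosen from the wild-type libraries alone, as those called there with a stage response of at least 1 on the log2 scale. Of the 1237 genes that rose in wild type, the median gene kept 39.3% of its log2 response in EcR-RNAi (quartiles 27.4% and 55.5%). A response larger than in wild type was seen for 50 of them and a response of opposite sign for 37. Of the 859 genes that fell in wild type, the median gene kept 24.0% (quartiles 13.5% and 34.1%), 10 had a larger response and 80 one of opposite sign. The medians were 39.4% and 28.8% for the genes that rose and fell with upper-quartile scaling, and 40.8% and 31.7% with quantile scaling. The wild-type values both chose these genes and form the denominator, so the shares are a description and carry no test.

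Each difference can also be read as the genotype difference at +6 h minus that at -6 h. Among the 1197 genes called lower, EcR-RNAi minus wild type had a median of -0.92 at +6 h and 0.22 at -6 h, and the larger of both values was at +6 h for 940 genes (78.5%). The genotype difference had opposite signs at the 2 stages for 826 of them (69.0%, against 44.1% of all tested genes), which choosing genes on the difference favours. A difference of at least 1 on the log2 scale was present at both stages for 143 of these genes, at +6 h alone for 377 and at -6 h alone for 87. Over all tested genes these numbers were 382, 960 and 257. Among the 905 genes called higher the medians were 0.90 at +6 h and -0.11 at -6 h, and 830 genes (91.7%) had the larger value at +6 h. For comparison, 66.2% of all tested genes had the larger value at +6 h. In all, the genotype difference passed for 42.9% of genes at +6 h (21.3% higher, 21.6% lower) and for 10.9% at -6 h (7.51% higher, 3.36% lower). The signs of these medians follow from how the genes were chosen, and the libraries are the same as in the test.

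**Figure D2:**
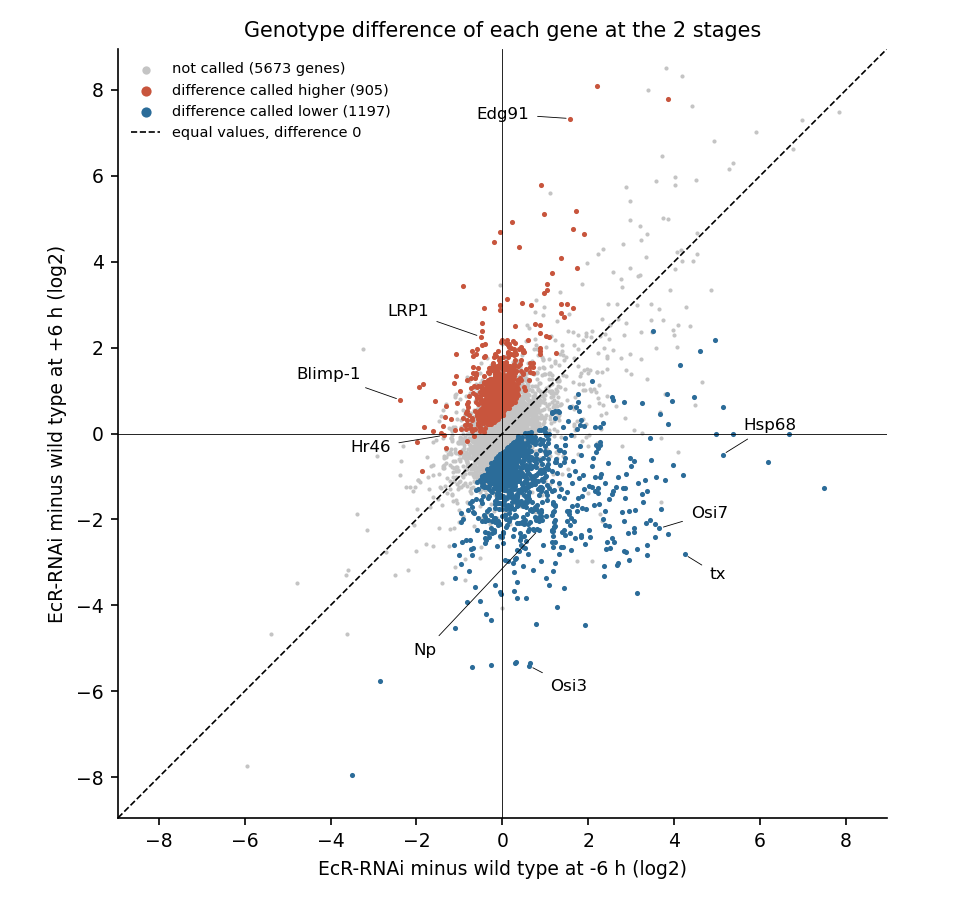
EcR-RNAi minus wild type for each gene at +6 h (vertical axis) and at -6 h (horizontal axis), on the log2 scale, with the genes called higher in red and those called lower in blue. tx and Osi7 lie low and to the right (-2.81 and -2.21 at +6 h, 4.24 and 3.66 at -6 h), Osi3 lies low near the middle (-5.41 at +6 h, 0.62 at -6 h), and Hr46 lies left of the centre (-0.04 at +6 h, -1.36 at -6 h).

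The members were grouped into 46 lists by function, and each list is given by its calls in both directions beside the 11.6% and 15.4% of all genes. Where limma called no member of a list in a direction, edgeR and DESeq2 called 0 there too, apart from 1 gene each in the higher direction in the Wingless list. At an unadjusted p under 0.05 those directions held 0 members, except for 6 lower and 1 higher among the cytosolic ribosomal genes, 3 lower among the proneural genes, 2 lower among the mitochondrial ribosomal genes and 2 higher in the Wingless list. The planar cell polarity and S phase lists each had 1 such lower member, and the apoptosis, myoblast and hemocyte lists each had 1 such higher member.

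EcR itself was the first gene to examine, because the hairpin targets it. It stood at 2201 and 2081 normalized counts in EcR-RNAi wings at +6 h and at 1634 and 1307 at -6 h, against 5764 and 6852 in wild-type wings at +6 h and 2194 and 1924 at -6 h. All EcR-RNAi libraries at +6 h lay below all wild-type libraries at +6 h, and the same held at -6 h with a narrower gap. The difference of stage responses was -1.06 ± 0.20 (SE, 2 libraries a group; limma adjusted p = 0.00234), made of a stage response of 0.55 in EcR-RNAi and 1.61 in wild type. The genotype difference of EcR was -1.55 at +6 h and -0.49 at -6 h. Any reads of the hairpin itself that were counted to EcR were not set apart, so these values are not a measure of the knockdown.

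Of the 7 tested genes for the receptor, its partner and its cofactors, 2 were called lower and 1 higher. usp, which encodes the heterodimer partner, was at 796 and 842 normalized counts in EcR-RNAi at +6 h and 726 and 794 at -6 h, against 1142 and 1296 in wild type at +6 h and 772 and 665 at -6 h. The 4 EcR-RNAi values of usp thus lay within a narrow band, below both wild-type libraries at +6 h. The difference was -0.65 ± 0.16 (adjusted p = 0.0119), and the call ended with upper-quartile scaling, quantile scaling and without replicate 1 of EcR-RNAi at +6 h (highest adjusted p = 0.111). rig, which encodes a cofactor that binds EcR, was called higher at 1.00 ± 0.18 (adjusted p = 0.00206), with a stage response of -0.42 in EcR-RNAi and -1.42 in wild type.

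Transcription factor genes of the hormone cascade differed in both directions, with 8 of 17 called higher and 2 lower (median 0.53). Leaving out any 1 library of EcR-RNAi at +6 h or of wild type gave 5 higher. The repressor gene Blimp-1, which is induced by the hormone and delays ftz-f1, stood at 1336 and 989 normalized counts in EcR-RNAi at +6 h and at 1518 and 857 at -6 h, against 650.2 and 687 in wild type at +6 h and 6124 and 5711 at -6 h. The nuclear receptor gene ftz-f1, a competence factor of the prepupa, was at 2278 and 2069 in EcR-RNAi at +6 h and at 623 and 464 at -6 h, against 6359 and 4085 in wild type at +6 h and 163 and 106 at -6 h. In EcR-RNAi the Blimp-1 values of both stages overlapped, while in wild type they lay far apart, and for ftz-f1 the stages did not overlap in either genotype. The difference was 3.16 ± 0.38 for Blimp-1 (adjusted p = 0.00141) and -3.25 ± 0.41 for ftz-f1 (adjusted p = 0.00212). At +6 h EcR-RNAi wings had less ftz-f1 RNA than wild type (-1.23, adjusted p = 0.0156), and at -6 h they had more ftz-f1 RNA (2.02, adjusted p = 0.00753) and less Blimp-1 RNA (-2.37, adjusted p = 0.00227).

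Hr46, the gene for the nuclear receptor DHR3 that activates ftz-f1, was one of the few genes with a larger positive response in EcR-RNAi. It was at 5287 and 4675 normalized counts in EcR-RNAi at +6 h and at 1159 and 961 at -6 h, against 5197 and 5037 in wild type at +6 h and 2854 and 2589 at -6 h. At +6 h the genotypes overlapped, and at -6 h both EcR-RNAi libraries lay under both wild-type libraries. The difference was 1.32 ± 0.18 (adjusted p = 0.000307), with stage responses of 2.23 in EcR-RNAi and 0.91 in wild type. Kr-h1, a zinc finger gene that responds to juvenile hormone, showed the other arrangement. It was at 1481 and 1274 in EcR-RNAi at +6 h and at 2335 and 2097 at -6 h, against 607 and 745 in wild type at +6 h and 2363 and 2122 at -6 h, so the genotypes overlapped at -6 h alone. Its difference passed (adjusted p = 0.00186), with stage responses of -0.69 in EcR-RNAi and -1.73 in wild type.

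The locus let-7-C, a microRNA cluster switched on by the hormone, stood at 124 and 113 normalized counts in EcR-RNAi at +6 h and at 115 and 119 at -6 h, against 62.6 and 56.6 in wild type at +6 h and 191 and 279 at -6 h. EcR-RNAi wings thus had the same range at both stages, and wild-type wings lay above it at -6 h and below it at +6 h (difference 1.96 ± 0.27, adjusted p = 0.000367). The bZIP factor gene vri had a stage response of 1.18 in EcR-RNAi and 3.10 in wild type (difference -1.92 ± 0.25, adjusted p = 0.000514).

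Some of the classical early genes did not pass the test of the difference. br, the Broad zinc finger gene, was at 85279 and 72215 normalized counts in EcR-RNAi at +6 h and at 78056 and 49683 at -6 h, against 95013 and 105705 in wild type at +6 h and 83851 and 69609 at -6 h. Its libraries overlapped between the stages in EcR-RNAi, and the difference of -0.06 ± 0.30 (adjusted p = 0.911) was positive with upper-quartile and quantile scaling. The ETS factor gene Eip74EF was at 1241 and 1325 in EcR-RNAi at +6 h and at 1208 and 1069 at -6 h, against 1906 and 2041 in wild type at +6 h and 2249 and 1885 at -6 h. Every EcR-RNAi value of Eip74EF was below every wild-type value, with a genotype difference of -0.62 at +6 h (adjusted p = 0.00157) and -0.86 at -6 h (adjusted p = 0.000871), and the difference of the stage responses was 0.24 ± 0.17 (adjusted p = 0.336), or 0.56 and past the test with quantile scaling (adjusted p = 0.0251). Eip75B, the gene for the nuclear receptor E75, had a similar arrangement and was called at 0.55 ± 0.17 (adjusted p = 0.0392), a call that ended in 8 of 18 alternative settings (highest adjusted p = 0.143). The factor gene Eip93F rose in EcR-RNAi (2.75, adjusted p = 0.000413) and in wild type (3.85, adjusted p = 7.79e-06), and its difference of -1.10 ± 0.45 did not pass (adjusted p = 0.109), though it did with the replicate number as a block (adjusted p = 0.00813).

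Of 4 tested genes for ecdysone inactivation and transport, 2 were called lower. Cyp18a1 encodes a cytochrome P450 that inactivates ecdysteroids, and stood at 1076 and 1147 normalized counts in EcR-RNAi at +6 h and at 88.7 and 189 at -6 h, against 2483 and 2005 in wild type at +6 h and 26.1 and 30.8 at -6 h. E23 encodes an ABC transporter that lowers the hormone response, and was at 1956 and 2043 in EcR-RNAi at +6 h and at 686 and 796 at -6 h, against 4098 and 4537 in wild type at +6 h and 325 and 339.5 at -6 h. In both genes EcR-RNAi lay above wild type at -6 h and below it at +6 h, with no overlap at either stage. The differences were -3.16 ± 0.48 for Cyp18a1 (adjusted p = 0.00438) and -2.26 ± 0.15 for E23 (adjusted p = 2.93e-06).

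Genes known to be induced by ecdysone in imaginal discs had 6 of 11 members called lower and 1 higher (median -1.48), and 4 lower with quantile scaling. ImpL1 was at 8691 and 9798 normalized counts in EcR-RNAi at +6 h and at 585 and 1114 at -6 h, against 65989 and 65088 in wild type at +6 h and 65.8 and 91.0 at -6 h. Its difference was -6.19 ± 0.44 (adjusted p = 0.000173). Sb, which encodes the membrane protease Stubble needed for disc eversion, was at 7544 and 6363 in EcR-RNAi at +6 h and at 2407 and 2418 at -6 h, against 21955 and 24786 in wild type at +6 h and 2382 and 2141 at -6 h. At -6 h the genotypes lay close together for Sb (0.09), whereas for ImpL1 EcR-RNAi was 3.37 above wild type on the log2 scale (adjusted p = 0.00116). The difference of Sb was -1.85 ± 0.18 (adjusted p = 4.06e-05). Eip71CD, which encodes a methionine sulfoxide reductase, rose in wild type (adjusted p = 9.23e-06) and had a stage response of -0.25 in EcR-RNAi that did not pass (difference -1.48 ± 0.18, adjusted p = 0.000146).

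Among called genes that averaged 100 normalized counts or more and had reads in every group, the most negative difference in the main fit was that of tx, a gene for a basic helix-loop-helix factor. It was at 506 and 477 normalized counts in EcR-RNAi at +6 h and at 57.5 and 86.0 at -6 h, against 3440.4 and 3479 in wild type at +6 h and 1.94 and 3.84 at -6 h. EcR-RNAi was therefore below wild type at +6 h and above it at -6 h, with no overlap, and the difference was -7.06 ± 0.35 (adjusted p = 1.22e-06). The level of tx in wild type at -6 h was low, and over the alternatives its difference lay between -7.42 and -5.81. That range includes the main value of CG6118, so the first place of tx is not firm. The differences of CG6118, CG13631, spz4 and CG14107 were -6.20 ± 0.35 (adjusted p = 1.54e-05), -5.96 ± 0.31 (3.11e-06), -5.83 ± 0.44 (0.000119) and -5.98 ± 1.12 (0.0207). The first 3 held in every alternative, and that of CG14107 ended in 5 alternatives (highest adjusted p = 0.0682). spz4 encodes a ligand of the Spätzle family. CG14110 was at 41.8 and 33.5 in EcR-RNAi at +6 h and at 4.87 and 12.3 at -6 h, against 474 and 542 in wild type at +6 h and no read at -6 h, so no size is given for its difference.

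The Osiris family, whose genes encode insect-specific membrane proteins found in cells that secrete cuticle, had 13 of 24 members tested, and 12 of them were called lower and 0 higher, with 7 lower when replicate 2 of wild type at +6 h was left out. The estimates of all 13 were negative, between -6.03 and -2.38, with a median of -3.80, against 0.00 over all genes. A member with few reads outside wild type at +6 h can reach the minimum mean through that group alone, which fixes a negative difference. Osi3 did so, and the count of calls and the median are thus a description. The median was the same with Osi5, which had no read in wild type at -6 h, set to a floor of 3 reads over that group. Osi7 was at 112092 and 109756 normalized counts in EcR-RNAi at +6 h and at 5161 and 13763 at -6 h, against 571450.2 and 457986 in wild type at +6 h and 602 and 739 at -6 h. Osi7 alone took 5.60% and 4.58% of all normalized counts in wild type at +6 h. Osi3 was at 16.0 and 14.8 in EcR-RNAi at +6 h and at 4.87 and 8.19 at -6 h, against 679 and 711 in wild type at +6 h and 6.78 and 1.92 at -6 h.

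Among the Osiris genes named here, Osi7 and Osi17 were higher in EcR-RNAi than in wild type at -6 h (3.66, adjusted p = 0.00557, and 2.94, adjusted p = 0.0245), as was Osi24 (adjusted p = 8.96e-05). For Osi3 and Osi9 the genotype difference at -6 h was 0.62 and 0.35 and did not pass. Osi9 was at 221 and 229.8 in EcR-RNAi at +6 h and at 33.1 and 31.1 at -6 h, against 2675 and 2281 in wild type at +6 h and 23.2 and 26.9 at -6 h. The differences were -5.88 ± 0.69 for Osi17 (adjusted p = 0.00365), -5.86 ± 0.64 for Osi7 (0.00165), -3.80 ± 0.21 for Osi9 (9.68e-07) and -3.77 ± 0.17 for Osi24 (4.82e-07). That of Osi3 was fitted at -6.03 ± 0.63, and no p-value is given for it because the filter fixed its direction. Counting for close copies within the family is uncertain.

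**Figure D3:**
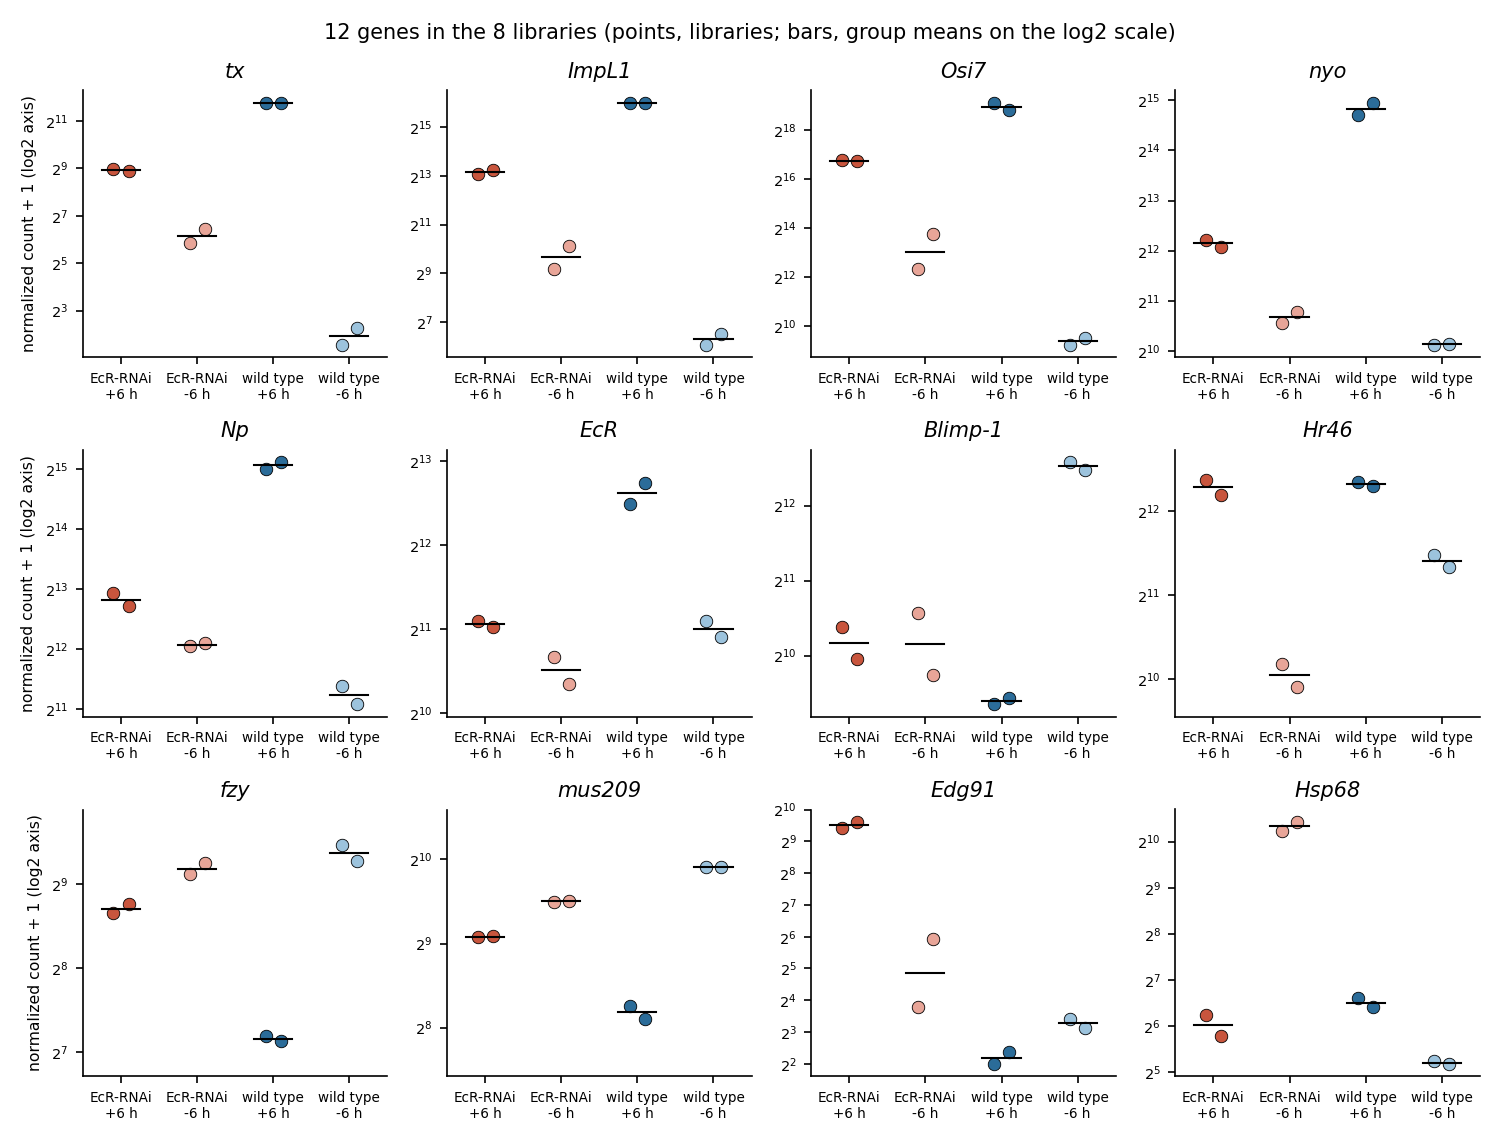
Normalized count plus 1 on a log2 axis for 12 genes in the 8 libraries (points), with the mean of the 2 libraries of a group on the log2 scale as a bar. tx, ImpL1, Osi7, nyo and Np are highest in wild type at +6 h and closer together between the stages in EcR-RNAi, Blimp-1 is level between the stages in EcR-RNAi, and Hsp68 is highest in EcR-RNAi at -6 h.

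Zona pellucida domain genes, whose products anchor the apical matrix to the epithelium, had 7 of 11 tested members called lower and 1 higher (median -1.97). nyo was at 4755 and 4350.3 normalized counts in EcR-RNAi at +6 h and at 1519.6 and 1762 at -6 h, against 26567 and 31711 in wild type at +6 h and 1118 and 1136 at -6 h. m (miniature) was at 372 and 337 in EcR-RNAi at +6 h and at 69.2 and 85.2 at -6 h, against 1236 and 1295 in wild type at +6 h and 38.7 and 42.3 at -6 h. Both genes rose in EcR-RNAi (1.47, adjusted p = 2.05e-05, and 2.19, adjusted p = 3.04e-06), but less than in wild type, where they rose by 4.69 and 4.93. The differences were -3.21 ± 0.18 for nyo (adjusted p = 9.68e-07), -2.74 ± 0.20 for m (5.34e-06) and -1.97 ± 0.20 for tyn (4.92e-05). The exception was pio, needed for attachment of the epithelium to the overlying matrix, which fell by 0.45 in EcR-RNAi (adjusted p = 0.0112) and fell by 1.67 in wild type (difference 1.22 ± 0.14, adjusted p = 0.000121).

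Genes for wing hairs and actin bundles had 6 of 12 members called lower and 1 higher (median -0.49), and 3 lower without replicate 2 of EcR-RNAi or of wild type at +6 h. mwh, whose product limits each wing cell to a single hair, was at 30.8 and 37.5 normalized counts in EcR-RNAi at +6 h and at 17.5 and 18.0 at -6 h, against 798 and 806 in wild type at +6 h and 36.8 and 42.3 at -6 h. f, which encodes the actin bundler Forked, was at 475 and 487 in EcR-RNAi at +6 h and at 204 and 187 at -6 h, against 2127 and 1793 in wild type at +6 h and 89.1 and 76.2 at -6 h. Wild type at +6 h stood above the other groups for both genes, while at -6 h EcR-RNAi was below wild type for mwh and above it for f. The differences were -3.41 ± 0.28 for mwh (adjusted p = 9.64e-06) and -3.25 ± 0.18 for f (9.68e-07). ovo, the gene of the hair-forming factor Shavenbaby, was called higher at 1.54 ± 0.25 (adjusted p = 0.00171), with a stage response of -0.04 in EcR-RNAi and -1.58 in wild type.

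Genes of planar cell polarity, the system that points the hairs along the wing, had 1 of 11 called higher and 0 lower (median -0.01, positive with upper-quartile and quantile scaling and with edgeR, and 0.08 without replicate 2 of wild type at -6 h). The called gene was pk, at 1925 and 1861 normalized counts in EcR-RNAi at +6 h and 2294 and 2431 at -6 h, against 966 and 966 in wild type at +6 h and 2311 and 2006 at -6 h (difference 0.84 ± 0.15, adjusted p = 0.00205). The cadherin gene stan was lower in EcR-RNAi at +6 h (-0.94, adjusted p = 5.84e-05) and at -6 h (-0.61, adjusted p = 0.00421), and the difference of its stage responses was -0.33 ± 0.15 (adjusted p = 0.14), positive with quantile scaling. That of dgo was -0.49 ± 0.19 (adjusted p = 0.0844), and it passed without replicate 2 of wild type at -6 h (-0.65, adjusted p = 0.0378).

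Cuticle protein genes went in both directions, with 5 of 40 tested members called higher and 5 lower among 122 in the table. Their median of 0.45 turned to -0.15 with edgeR, -0.17 with DESeq2 and -0.20 without replicate 1 of EcR-RNAi at -6 h, where 7 were called higher and 8 lower. Without its replicate 2 the calls were 12 higher and 5 lower, and without replicate 2 of EcR-RNAi at +6 h they were 2 and 3. Edg91 was at 682 and 788 normalized counts in EcR-RNAi at +6 h and at 12.7 and 59.8 at -6 h, against 2.98 and 4.20 in wild type at +6 h and 9.68 and 7.69 at -6 h. This cuticle gene, which is known to be expressed later in prepupal life, rose in EcR-RNAi (4.67, adjusted p = 0.00151) and did not pass in wild type (-1.08, adjusted p = 0.17). The difference was 5.75 ± 0.86 (adjusted p = 0.00207). Cpr47Eb was highest in wild type at +6 h, at 28.3 and 32.5 in EcR-RNAi at +6 h and 4.87 and 6.55 at -6 h, against 410.1 and 204 in wild type at +6 h and 1.94 and 1.92 at -6 h (difference -4.39 ± 0.56). It reached the minimum mean only with wild type at +6 h counted, which favours a negative difference, so no p-value is given for it. Cpr35B was called lower at -1.88 ± 0.34 (adjusted p = 0.00206). Counts of these related genes are uncertain where close copies share reads.

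Among genes for chitin synthesis, assembly and degradation, 7 of 18 were called lower and 0 higher (median -0.58), and 4 lower with quantile scaling. The chitinase gene Cht5 was at 1383 and 1458 normalized counts in EcR-RNAi at +6 h and at 371 and 432 at -6 h, against 7252 and 5407 in wild type at +6 h and 398 and 463 at -6 h. The genotypes overlapped at -6 h and not at +6 h, with a difference of -2.04 ± 0.21 (adjusted p = 5.12e-05). For Cht7 and Cht2 the genotype differences at +6 h were -0.13 and -0.22 and did not pass, and at -6 h EcR-RNAi was above wild type by 1.07 and 0.93 (adjusted p = 0.000343 and 0.000951). Their differences were -1.20 ± 0.18 and -1.15 ± 0.18 (adjusted p = 0.000744 and 0.001). Of the 3 tested imaginal disc growth factor genes, 1 was called in each direction, and Idgf4 fell by 2.45 in EcR-RNAi (adjusted p = 4.15e-07) and fell by 3.95 in wild type (difference 1.50 ± 0.16, adjusted p = 7.83e-05).

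The tanning and pigment genes had 4 of 12 called lower and 0 higher (median -0.34). laccase2, whose oxidase hardens and darkens new cuticle, was at 2629 and 2708 normalized counts in EcR-RNAi at +6 h and at 999 and 1072 at -6 h, against 6257 and 5676 in wild type at +6 h and 657 and 732 at -6 h (difference -1.74 ± 0.15, adjusted p = 1.72e-05). ple, the tyrosine hydroxylase gene, had a nearly equal difference of -1.73 ± 0.31 (adjusted p = 0.00335) but carried it at the other stage. Its genotype difference was -0.28 at +6 h and 1.45 at -6 h (adjusted p = 0.00271), against -1.16 and 0.58 for laccase2.

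Basement membrane genes had 6 of 13 members called lower and 2 higher (median -0.73), and 3 lower without replicate 1 of EcR-RNAi or replicate 2 of wild type at +6 h. wb, a laminin alpha gene, was at 1647 and 1586 normalized counts in EcR-RNAi at +6 h and at 868 and 886 at -6 h, against 6083 and 6030.4 in wild type at +6 h and 792 and 903 at -6 h. mp, which encodes a collagen with a multiplexin domain, was at 116 and 113 in EcR-RNAi at +6 h and at 135 and 131 at -6 h, against 25.4 and 37.8 in wild type at +6 h and 268 and 294 at -6 h. In EcR-RNAi mp lay between the wild-type levels of both stages, and wb at +6 h did as well. The differences were -1.96 ± 0.15 for wb (adjusted p = 5.41e-06) and 2.93 ± 0.27 for mp (2.77e-05). Cg25C, a collagen IV gene also made by hemocytes and fat body, was called at -1.07 ± 0.23 (adjusted p = 0.00567). EcR-RNAi exceeded wild type there by 1.03 at -6 h, the stage at which fat body markers summed to 2018 and 4906 normalized counts in EcR-RNAi, against 641 and 242 in wild type. The part of those markers in this result was not tested.

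Integrins and their linkers, which hold the 2 wing surfaces to the matrix between them, had 10 of 13 members called lower and 0 higher (median -0.82). The count was 7 lower with upper-quartile scaling and 7 lower with quantile scaling. All 13 estimates were negative. by, the tensin gene, was at 472 and 467 normalized counts in EcR-RNAi at +6 h and at 321 and 360.3 at -6 h, against 844 and 754 in wild type at +6 h and 185 and 145 at -6 h (difference -1.81 ± 0.19, adjusted p = 6.55e-05). Fit2, the kindlin gene, was at -2.06 ± 0.24 (adjusted p = 0.000121) and parvin at -1.06 ± 0.16 (adjusted p = 0.000741).

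Matrix proteases had 5 of 12 called lower and 3 higher (median -0.50). Np, which encodes the membrane serine protease Notopleural, was at 7811 and 6701 normalized counts in EcR-RNAi at +6 h and at 4226 and 4363 at -6 h, against 33001 and 35558 in wild type at +6 h and 2655 and 2155 at -6 h. All EcR-RNAi values lay between the wild-type levels of both stages, and the difference was -3.09 ± 0.19 (adjusted p = 1.57e-06). The matrix metalloprotease gene Mmp1 had a smaller difference of -1.29 ± 0.16 (adjusted p = 0.000195), with a stage response of 0.61 in EcR-RNAi and 1.89 in wild type.

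The glycolysis list had 10 of 12 members called lower and 0 higher (median -1.24). ImpL3, the lactate dehydrogenase gene, was at 699 and 641 normalized counts in EcR-RNAi at +6 h and at 195 and 272 at -6 h, against 2271 and 2392 in wild type at +6 h and 145 and 142 at -6 h (difference -2.48 ± 0.20, adjusted p = 1.15e-05). Pfk, for phosphofructokinase, was at 989 and 934 in EcR-RNAi at +6 h and at 859.7 and 885 at -6 h, against 2329 and 2441 in wild type at +6 h and 884 and 753 at -6 h. Its stage response of 0.14 in EcR-RNAi did not pass the test (adjusted p = 0.437), while that of 1.55 in wild type did (4.29e-07). The difference was -1.41 ± 0.15 for Pfk (adjusted p = 7.19e-05) and -1.79 ± 0.18 for Pglym78, the phosphoglycerate mutase gene (5.1e-05). ImpL3 also stands in the list of ecdysone-inducible disc genes.

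All called genes of the 2 cell cycle lists were called in the higher direction. Of 34 genes for replication and S phase, 25 were called higher and 0 lower (median 1.13), and 1 was called lower without replicate 2 of EcR-RNAi at -6 h. mus209, the gene for the replication clamp PCNA, was at 539 and 544 normalized counts in EcR-RNAi at +6 h and at 719 and 729 at -6 h, against 304 and 275 in wild type at +6 h and 959 and 961 at -6 h. EcR-RNAi thus lay between the wild-type levels at both stages, and mus209 fell by 0.42 in EcR-RNAi (adjusted p = 0.0149) and by 1.73 in wild type (1.03e-07). The difference was 1.31 ± 0.14 (adjusted p = 7.19e-05). It was 1.38 ± 0.16 for the helicase subunit gene Mcm3 (adjusted p = 0.000107) and 1.37 ± 0.16 for the ribonucleotide reductase gene RnrL (0.000127).

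Of 31 genes for mitotic entry and exit, 22 were called higher and 0 lower (median 1.18). fzy, which encodes the Cdc20 activator of the anaphase-promoting complex, was at 402 and 432 normalized counts in EcR-RNAi at +6 h and at 555 and 607 at -6 h, against 145 and 139.5 in wild type at +6 h and 707 and 616 at -6 h. The spindle gene asp was at 937 and 887 in EcR-RNAi at +6 h and at 1482 and 1311 at -6 h, against 286 and 265 in wild type at +6 h and 1169 and 1088 at -6 h. Both genes fell with stage in both genotypes, and at +6 h both were higher in EcR-RNAi, by 1.55 for fzy and 1.72 for asp. The differences were 1.73 ± 0.16 for fzy (adjusted p = 3.09e-05), 1.42 ± 0.15 for asp (6.35e-05) and 1.45 ± 0.15 for the kinesin-5 gene Klp61F (4.92e-05).

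Genes of the nucleolus and of ribosome assembly were also called in the higher direction, with 16 of 19 called higher and 0 lower (median 0.96, and all 19 estimates positive). Nop60B, the gene for the pseudouridine synthase of nucleolar RNPs, was at 760.3 and 868 normalized counts in EcR-RNAi at +6 h and at 1059.5 and 1061 at -6 h, against 353 and 325 in wild type at +6 h and 1037 and 1143 at -6 h (difference 1.30 ± 0.15, adjusted p = 0.000132). Nopp140 and mbm, both for nucleolar proteins, were at 1.12 ± 0.14 (adjusted p = 0.000178) and 1.43 ± 0.18 (0.000187). The genotypes overlapped at -6 h for Nop60B, and the genotype difference at +6 h was 1.26, 1.07 and 1.19 for Nop60B, Nopp140 and mbm.

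Few structural ribosomal genes were called. Of 83 tested genes for cytosolic ribosomal proteins, 0 were called in either direction by limma, edgeR or DESeq2 (median -0.23, positive with quantile scaling), with 1 higher and 6 lower at an unadjusted p under 0.05. Of the 83 estimates 69 were below 0, 4 genes were called lower without replicate 1 of EcR-RNAi at -6 h, and 1 was called higher with quantile scaling. Of 72 for mitochondrial ribosomal proteins, 3 were called higher and 0 lower (median 0.21), with 10 called higher with upper-quartile scaling, 2 when replicate 1 of EcR-RNAi at -6 h was left out, and 0 when its replicate 2 was.

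Genes of the endoplasmic reticulum and the entry to secretion had 14 of 17 members called lower and 0 higher, with a median of -0.90, all 17 estimates being negative. The count was 5 lower with quantile scaling. Sec61beta, for a subunit of the translocon through which secreted proteins enter, was at 4234 and 3774 normalized counts in EcR-RNAi at +6 h and at 2775 and 2832 at -6 h, against 7561 and 7889 in wild type at +6 h and 2501 and 2326 at -6 h (difference -1.17 ± 0.16, adjusted p = 0.000325). Sec61alpha was at -1.11 ± 0.16 (adjusted p = 0.000564) and sar1, the GTPase gene of transport vesicles, at -0.97 ± 0.16 (0.00107). These 3 genes rose in EcR-RNAi, by 0.38 to 0.51 on the log2 scale, and by 1.35 to 1.68 in wild type.

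Heat shock and chaperone genes had 5 of 11 called lower and 3 higher (median -0.17, positive with upper-quartile and quantile scaling). Hsp68 was at 75.0 and 54.3 normalized counts in EcR-RNAi at +6 h and at 1208 and 1382 at -6 h, against 96.9 and 83.9 in wild type at +6 h and 36.8 and 35.2 at -6 h. Both EcR-RNAi libraries at -6 h stood far above the other 6, with a genotype difference of 5.13 at that stage (adjusted p = 6.58e-08). The difference of stage responses was -5.62 ± 0.26 (adjusted p = 5.01e-07). Hsp26 was at 1028 and 1080.2 in EcR-RNAi at +6 h and at 1383 and 1709 at -6 h, against 1523 and 1773 in wild type at +6 h and 1069.6 and 1118 at -6 h, so the genotypes changed in opposite directions (-1.13 ± 0.18, adjusted p = 0.00083). Hsp67Bc was called lower at -2.89 ± 0.44 (adjusted p = 0.000721). At -6 h gut markers summed to 1415 and 378 in EcR-RNAi, against 7.70 and 10.2 in wild type. Fat body markers summed to 2018 and 4906 in EcR-RNAi, against 641 and 242 in wild type. The part of both in these results was not tested.

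Of 16 genes for JNK signalling and stress, 6 were called lower and 0 higher (median -0.18, positive with quantile scaling), and 3 lower with upper-quartile scaling. puc, the JNK phosphatase gene and a target of the pathway, was at 823 and 763 normalized counts in EcR-RNAi at +6 h and at 725 and 667 at -6 h, against 1460.0 and 1384 in wild type at +6 h and 456 and 482 at -6 h (difference -1.41 ± 0.14, adjusted p = 4.92e-05). The factor gene Ets21C was at 40.6 and 67.1 in EcR-RNAi at +6 h and at 92.6 and 77.8 at -6 h, against 77.5 and 64.0 in wild type at +6 h and 19.4 and 16.6 at -6 h. Its genotypes overlapped at +6 h, and at -6 h EcR-RNAi lay 2.18 above wild type (adjusted p = 0.000464). The differences were -2.60 ± 0.39 for Ets21C (adjusted p = 0.000646) and -1.75 ± 0.37 for the TNF gene egr (0.00697). Apoptosis genes had 3 of 11 called lower and 0 higher (1 lower and 1 higher with upper-quartile scaling), led by the inhibitor gene th at -0.96 ± 0.15 (adjusted p = 0.000764), and core autophagy genes had 2 of 17 called lower and 0 higher, and 0 lower with upper-quartile scaling.

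Genes of the signalling pathways that pattern the wing mostly had shares near or under the background. The counts higher and lower were 1 and 2 of 19 for the Dpp pathway, 0 and 1 of 22 for the Wingless pathway, 1 and 2 of 14 for Hedgehog and compartment genes, 1 and 2 of 20 for EGFR and vein genes, and 2 and 2 of 18 for the Hippo pathway. With both upper-quartile and quantile scaling 7 genes of the Dpp pathway were called higher. Without replicate 1 of EcR-RNAi at -6 h the higher calls numbered 4 for the Dpp and Hippo lists and 3 for the Wingless and EGFR lists, and with quantile scaling 4 for the Hippo list and 3 for the Wingless list. The Hedgehog list had 1 higher and 0 lower under both scalings, 2 higher and 1 lower without replicate 1 of EcR-RNAi at -6 h, and 0 higher and 2 lower without its replicate 2. These small counts are not read as a direction. The BMP-binding gene cv-2, needed for crossveins, was called higher at 0.93 ± 0.19 (adjusted p = 0.00437), and the Hippo pathway kinase cofactor gene mats lower at -0.95 ± 0.14 (0.000666). edl, for a regulator of ETS factors downstream of EGFR, was lower at -1.36 ± 0.25 (adjusted p = 0.00245). The glypican gene dlp was called at -0.75 ± 0.18 (adjusted p = 0.0112, ending in 2 alternatives, highest 0.0833). Calls of the beta-catenin gene arm (-0.58 ± 0.17, adjusted p = 0.0273) and the vein factor gene kn (-0.72 ± 0.20, 0.0229) ended in 7 and 6 of the 18 alternatives (highest 0.431 and 0.163).

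In the Notch and dorsal-ventral boundary list 6 of 18 were called higher and 2 lower (median 0.07). The median was -0.12 without replicate 2 of EcR-RNAi at -6 h, and 4 were called lower without its replicate 1. The higher calls numbered 2 without replicate 2 of EcR-RNAi or replicate 1 of wild type at +6 h. Bx, for a LIM-only protein, was at 1203 and 1099 normalized counts in EcR-RNAi at +6 h and 1403 and 1183 at -6 h, against 498 and 536 in wild type at +6 h and 1084 and 1066 at -6 h (difference 0.89 ± 0.16, adjusted p = 0.00189). The ubiquitin ligase gene mib1, which acts on Notch ligands, was called lower at -0.75 ± 0.16 (adjusted p = 0.006). In the Enhancer of split and Bearded list 1 of 14 was called higher and 2 lower. The counts were 3 higher and 1 lower with upper-quartile scaling and 1 higher and 5 lower without replicate 1 of wild type at -6 h. No direction is read from this list. Brd, the founding Bearded gene and an inhibitor of Notch ligand activity, was at 1085 and 928 in EcR-RNAi at +6 h and at 502 and 652 at -6 h, against 336 and 248 in wild type at +6 h and 712 and 815 at -6 h. Brd rose in EcR-RNAi (0.81, adjusted p = 0.0116) and fell in wild type (-1.40, 8.4e-05), and the difference was 2.21 ± 0.25 (0.000173). Of 19 proneural and sensory organ genes, 0 were called in either direction by limma, edgeR or DESeq2, with 3 lower and 0 higher at an unadjusted p under 0.05, and 2 were called higher without replicate 1 of EcR-RNAi at -6 h.

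Among cell architecture genes, 3 of 27 actomyosin genes, 5 of 21 adherens junction and polarity genes and 2 of 20 septate junction genes were called lower and 0 higher, against 27.0% of all genes called. With upper-quartile scaling the adherens list had 1 higher and 0 lower and the septate list 1 lower, and with quantile scaling the adherens list had 3 higher and 0 lower, the actomyosin list 1 higher and 0 lower and the septate list 0 lower. Without replicate 1 of EcR-RNAi at -6 h the adherens list had 3 higher and 2 lower calls, and leaving out replicate 2 instead gave 0 higher and 7 lower. Of 9 RNA interference genes, 1 was called higher and 0 lower. The counts were 2 higher with upper-quartile scaling and without replicate 1 of EcR-RNAi at -6 h, and 1 in each direction without its replicate 2. The called gene was Dcr-2, the Dicer that processes hairpin RNA, at 673 and 692 normalized counts in EcR-RNAi at +6 h and 819 and 701 at -6 h, against 837 and 893 in wild type at +6 h and 1697 and 2119 at -6 h (difference 0.98 ± 0.18, adjusted p = 0.00217). Every EcR-RNAi value of Dcr-2 was below every wild-type value.

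**Figure D4:**
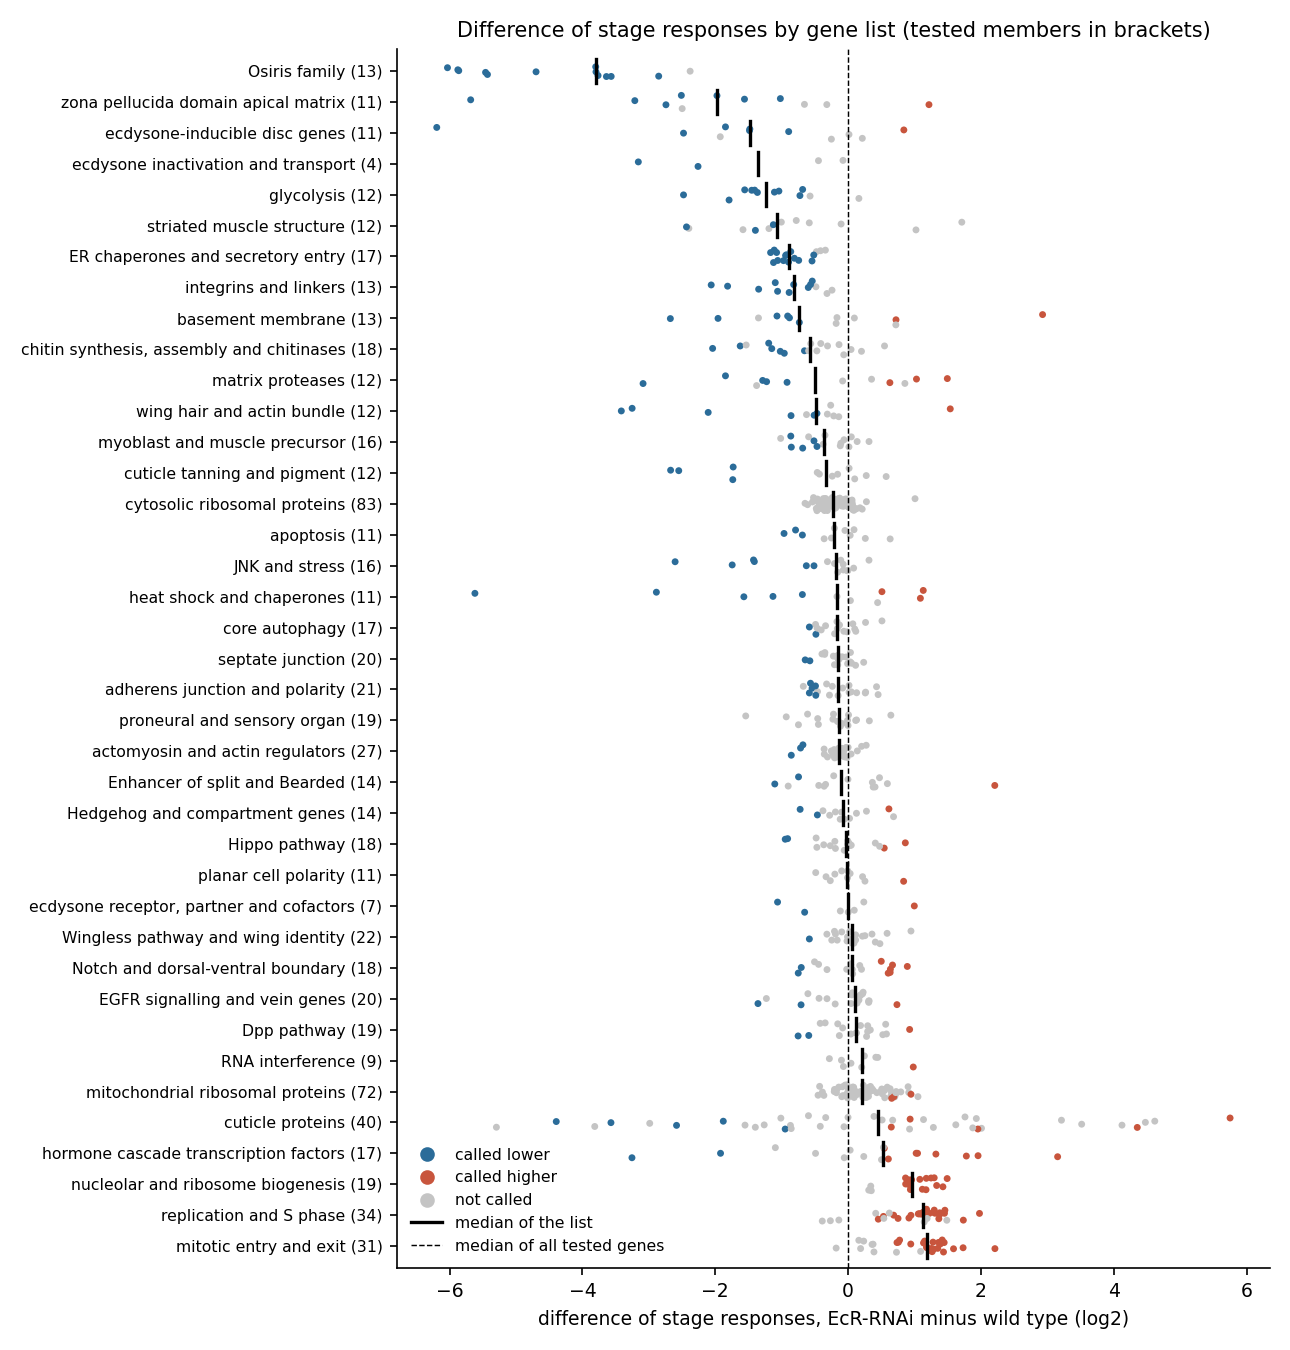
Difference of stage responses, EcR-RNAi minus wild type on the log2 scale, for the tested members of each gene list (points), with the list median as a bar and the median of all genes as a dashed line. The Osiris, zona pellucida domain and glycolysis lists lie to the left of the line (medians -3.80, -1.97 and -1.24), and the nucleolar, S phase and mitosis lists to the right of it (0.96, 1.13 and 1.18).

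Outside the lists, several called genes fell in wild type and had a stage response nearer 0 in EcR-RNAi. LRP1, for a lipoprotein receptor of the LDL receptor family, was at 1587 and 1515 normalized counts in EcR-RNAi at +6 h and at 1705 and 1743 at -6 h, against 318 and 331 in wild type at +6 h and 2216 and 2685 at -6 h (difference 2.75 ± 0.16, adjusted p = 9.68e-07). brat, for a translational repressor, was at 5627 and 5529 in EcR-RNAi at +6 h and 6172 and 4746 at -6 h, against 1924 and 1953 in wild type at +6 h and 6163 and 6952 at -6 h (difference 1.80 ± 0.19, 7.19e-05). In both genes wild type at +6 h stood below all other groups. fru, best known as a factor gene of sex-specific behaviour, was at 808 and 720.1 in EcR-RNAi at +6 h and at 1635 and 825 at -6 h, against 77.5 and 94.4 in wild type at +6 h and 1265 and 913 at -6 h (difference 3.03 ± 0.49, 0.0073). CG1607 and CG32447 were called higher at 2.42 ± 0.17 and 2.32 ± 0.17 (adjusted p = 2.93e-06 and 4.24e-06). Both fell in EcR-RNAi (-0.72 and -0.90, adjusted p = 0.00167 and 0.000382) and in wild type (-3.14 and -3.22). The cadherin gene Cad86C was called higher at 1.03 ± 0.14 (adjusted p = 0.000324), with stage responses of 0.12 in EcR-RNAi and -0.91 in wild type.

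The lowest adjusted p among genes with a smaller positive response belonged to spir, CG44085 and Osi24. spir, which encodes the actin nucleator Spire, was at 908 and 883 normalized counts in EcR-RNAi at +6 h and at 157 and 180.2 at -6 h, against 5795 and 5327 in wild type at +6 h and 68.7 and 60.2 at -6 h (stage responses of 2.41 in EcR-RNAi and 6.41 in wild type, adjusted p of the difference = 4.82e-07). The libraries of each group lay close together and no groups overlapped. The difference of CG44085 was -3.66 ± 0.16 with the same adjusted p. The stage responses of CG11652 had opposite signs. It was at 75.0 and 75.0 in EcR-RNAi at +6 h and 110.1 and 108 at -6 h, against 419 and 335 in wild type at +6 h and 144 and 116 at -6 h (difference -2.06 ± 0.24, 0.000106).

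Several of the most positive differences came with a level that was highest in EcR-RNAi at +6 h. Aldh, for an aldehyde dehydrogenase, was at 534 and 573 normalized counts in EcR-RNAi at +6 h and at 76.0 and 195 at -6 h, against 16.4 and 13.6 in wild type at +6 h and 59.0 and 65.3 at -6 h (difference 4.16 ± 0.54, adjusted p = 0.0011). CG34247 was at 1088 and 1105 in EcR-RNAi at +6 h and at 68.2 and 324 at -6 h, against 2.98 and 5.24 in wild type at +6 h and 10.7 and 8.33 at -6 h. CG8736 was at 802 and 720.1 in EcR-RNAi at +6 h and at 4.87 and 70.4 at -6 h, against 1.49 and 2.10 in wild type at +6 h and 5.81 and 1.92 at -6 h. The EcR-RNAi libraries at -6 h were far apart for both of the last genes, and the calls ended in 8 alternatives for CG34247 (3.93 ± 1.00, adjusted p = 0.0348, highest 0.338) and in 9 for CG8736 (5.90 ± 1.64, 0.0478, highest 0.331), which had 3 reads in all in wild type at +6 h. CG12912 rose in EcR-RNAi (2.70, adjusted p = 0.000106) and did not pass in wild type (-0.31, 0.38), with a difference of 3.01 ± 0.40 (0.000395). Those of CG13053 and CG14304 were 3.10 ± 0.61 (adjusted p = 0.0139, highest 0.0649) and 3.34 ± 0.68 (0.0144, highest 0.0608), and that of CG3961, with a larger positive response in EcR-RNAi, was 1.00 ± 0.26 (0.0153, highest 0.0711).

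The most negative fitted difference of all belonged to a marker of gut tissue. Only 4 of the 28 gut protease markers could be tested, and they passed the minimum mean only through the EcR-RNAi libraries at -6 h, so the filter fixed the direction of their differences and no count of calls is read from them. The summed level of all 28 was 2.50 and 5.90 normalized counts in EcR-RNAi at +6 h and 1415 and 378 at -6 h, against 11.9 and 14.7 in wild type at +6 h and 7.70 and 10.2 at -6 h. Between 20 and 26 of the 28 markers were at 0 in each library. Jon65Aiii, a Jonah protease gene of the gut, was at 1.23 and 0 in EcR-RNAi at +6 h and at 468 and 112 at -6 h, against 1.49 and 4.20 in wild type at +6 h and 0 and 0.640 at -6 h. Jon65Aiv was at 509.8 and 135 and yip7 at 257 and 97.5 in EcR-RNAi at -6 h, and neither had a read in EcR-RNAi at +6 h. The sum was thus high in both EcR-RNAi libraries at -6 h, and higher in replicate 1. The part of gut material in the results of other genes was not tested.

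Fat body markers had 2 of 8 called lower and 0 higher. The count was 0 lower under quantile scaling and 4 lower when replicate 1 of EcR-RNAi at -6 h was left out. Leaving out any of 3 libraries at +6 h, both of EcR-RNAi and replicate 1 of wild type, gave 0 lower. The sum over the 9 in the table was 884.5 and 1018.0 normalized counts in EcR-RNAi at +6 h and 2018 and 4906 at -6 h, against 489 and 345 in wild type at +6 h and 641 and 242 at -6 h, with 1 of 9 markers at 0 in every library. Fbp2 was called at -3.19 ± 0.87 (adjusted p = 0.0385), and the call ended in 9 of the 18 alternatives (highest adjusted p = 0.143). Hemocyte markers summed to 2464 and 2391 in EcR-RNAi at +6 h and 2509.9 and 2244 at -6 h, against 3121 and 2868 in wild type at +6 h and 2022 and 1546 at -6 h, with 3 of 12 called lower and 0 higher, with 1 called lower by edgeR and 6 without replicate 1 of wild type at -6 h. The hemocyte calls of Hml (-1.84 ± 0.53, adjusted p = 0.0238) and proPO-A1 ended in 7 and 8 alternatives. proPO-A1 passed the minimum mean only through EcR-RNAi at -6 h, so the filter fixed its direction and no p-value is given for it. It is among the 3 hemocyte markers called lower, and no direction is read from that count.

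Myoblast genes had 5 of 16 called lower and 0 higher (median -0.36), 2 lower with upper-quartile or quantile scaling and 1 without replicate 2 of EcR-RNAi at +6 h, with a sum of 16839 and 16565 normalized counts in EcR-RNAi at +6 h and 12382 and 11754 at -6 h, against 18455 and 17097 in wild type at +6 h and 10572 and 9723 at -6 h. The founder cell gene kirre of this list was called at -0.86 ± 0.20 (adjusted p = 0.00942), a call that ended without replicate 2 of EcR-RNAi at +6 h. sls, the titin gene, belongs to the striated muscle list and was called at -1.13 ± 0.15 (adjusted p = 0.000297). Striated muscle genes had 3 of 12 called lower and 0 higher (median -1.07), and 6 lower without replicate 1 of wild type at -6 h. All 23 in the table summed to 31357 and 24538 in EcR-RNAi at +6 h and 34839 and 16836 at -6 h, against 22281 and 20672 in wild type at +6 h and 34176 and 34542 at -6 h. The sum was thus lower at +6 h in wild type, whereas the median stage response of the tested genes there was 1.94, and the EcR-RNAi libraries at -6 h lay far apart. Neuron and glia markers had 1 of 7 called lower and 0 higher, the microtubule gene futsch at -1.89 ± 0.18 (adjusted p = 3.1e-05). The neuron list had 2 higher and 1 lower when replicate 1 of EcR-RNAi at -6 h was left out and 2 lower when its replicate 2 was. Trachea markers had 1 of 7 higher and 0 lower, which was pio, also a zona pellucida domain gene, and wing epithelium markers 2 of 12 higher and 0 lower (median 0.08, and -0.10 without replicate 2 of EcR-RNAi at -6 h). The wing epithelium calls, of ap and bs, ended in 6 and 7 alternatives. The list had 4 higher with quantile scaling and without replicate 1 of EcR-RNAi at -6 h, 1 lower without its replicate 2, and 0 in either direction without any single library at +6 h or replicate 2 of wild type at -6 h. The wing epithelium markers summed to between 24431 and 34096 normalized counts in all 8 libraries.

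**Figure D5:**
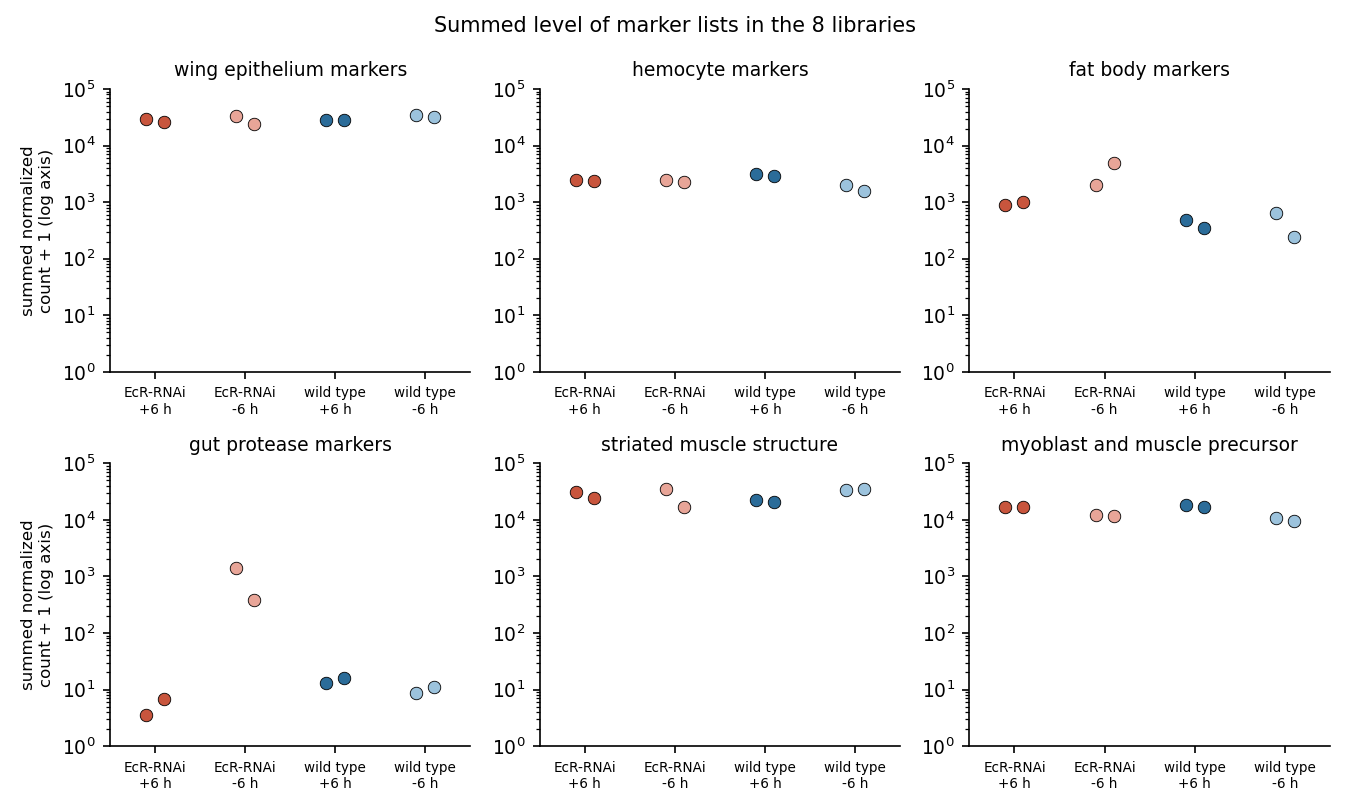
Summed normalized count plus 1 of 6 marker lists in the 8 libraries, on a log axis, with a point for each library. Gut protease markers are at 1415 and 378 in EcR-RNAi at -6 h and at 14.7 or less in the other 6 libraries, fat body markers are highest in the same group, and wing epithelium markers lie between 24431 and 34096 throughout.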

How the data were processed

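The deposited RNA values, which the authors call normalized counts, are a signal per gene and library. They came out as whole multiples of what 1 read is worth in a library (100% of values, tolerance 0.1 read), so the authors divided read counts by 1 factor per library. Per the submitters' processing notes, STAR 2.5.2b, Subread 1.24.2, SAMtools 1.3.1 and DESeq2 1.14.1 were used with the build dm3, and their roles are not stated. Whether counting used strand was not given in those notes, and overlapping genes, antisense genes and close copies are uncertain for that reason.

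A model of 4 group means was fitted with limma 3.58.1 (R 4.3.3, trend and robust) to log2(normalized count + 1), with 1 estimate of the spread for all 8 libraries. This scale understates changes of low genes. Values after ± are standard errors (n = 2 libraries a group), and Benjamini-Hochberg adjustment ran over 7775 genes. Groups and replicate numbers came from the sample labels. No label says that replicates were separate cultures or animals, and the p-values describe the spread between these libraries alone, which may be technical. Same-numbered replicates were not treated as pairs. The count tests edgeR 4.0.16 and DESeq2 1.42.0 were run on the recovered reads as alternatives. In simulated counts with 200 changed genes among 7775, limma recovered 62% of 2-fold and 84% of 4-fold differences. Of its 164 calls 11% were false, a larger share than the adjusted p threshold of 0.05 stands for.

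Genes and lists were chosen with earlier results of these data known, and a few list entries were corrected after values were seen. Named genes are the 10 largest differences in each direction among called genes with a mean of at least 100, up to 3 members of each list with the lowest adjusted p, fixed hormone genes, and the 3 with the lowest adjusted p of each sign pattern. The CUT&RUN libraries and the authors' own comparison table were not used here.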

Additional observations from a re-analysis of the deposited data

Results flagged for a closer look

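The stage response differed between the genotypes by the test of the difference itself for 905 genes in the higher and 1197 genes in the lower direction, and this is what drew attention to both counts. For 15 of the 105 named genes called, gut markers aside, every library pair moved one way in EcR-RNAi and the other way in wild type. The same held for 4.14% of all tested genes and 6.52% of those called. The named genes were chosen partly by the size of the difference, so the count is a description. The stage response in EcR-RNAi itself passed for 6 of the 15. In the higher direction these were Edg91 (difference 5.75), Aldh (4.16), CG34247 (3.93) and Brd (2.21), and in the lower direction Hsp68 (-5.62) and Hsp26 (-1.13). It did not pass for CG14304 (3.34), CG13053 (3.10), Cad86C (1.03), cv-2 (0.93), Fbp2 (-3.19), Ets21C (-2.60), CG11652 (-2.06), Eip71CD (-1.48) and mib1 (-0.75), for which no change of direction in EcR-RNAi is shown. In wild type the stage response did not pass the limma test for Edg91 (adjusted p = 0.17), CG34247 (0.255) and Fbp2 (0.171). Opposite moves are therefore not shown for these genes either. Groups of 2 libraries are too small for a test of single libraries that stand apart.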

How the results depend on the processing

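The counts of genes called were recomputed under 18 alternatives. The count in the higher direction was 905, and it was 1377 with upper-quartile scaling. Leaving out each library in turn gave 584 to 991 genes higher, the lowest without replicate 2 of EcR-RNAi at +6 h, and 862 to 1192 genes lower. edgeR called 959 higher and 1154 lower, and DESeq2 called 645 and 1007. The replicate block, with the replicate number as a term, gave 889 and 1172. Deviations of same-numbered samples correlated with r between -0.148 and 0.129, so the numbers were not taken to pair the samples. Of the 113 genes named, 90 kept their direction and their side of the threshold in every alternative. Across all genes and alternatives 83 values lost the call, 3 gained it and 7 changed sign. Those gained were Eip93F with the replicate block (-1.10), Eip74EF with quantile scaling (0.56) and dgo without replicate 2 of wild type at -6 h (-0.65). The sign changes were those of br, which was at 0.12 with upper-quartile scaling, 0.63 with quantile scaling, 0.06 without replicate 2 of EcR-RNAi at +6 h, 0.27 without replicate 1 of EcR-RNAi at -6 h (the highest of -0.38 to 0.27 over the libraries left out), and 0.02 and 0.08 without replicate 2 of wild type at +6 h and at -6 h, and of stan, at 0.01 with quantile scaling. The cause of these changes was not tested. With 2 libraries a group differences can be missed, since 62% of simulated 2-fold differences were recovered. Smaller ones were not simulated. The simulation led to 164 calls against 2102 in the data, so its share recovered need not hold there.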
